A study of Mus musculus with 4 samples.

Results

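The 10 genes described here are the receptors of bone morphogenetic proteins (BMPs) and genes that BMP signaling induces, and they were chosen as a list of gene symbols, with no threshold on their values. Bmpr1a, Bmpr1b, Acvr1, Acvrl1 and Bmpr2 encode receptors, and Id1, Id2, Id3, Smad6 and Smad7 are response genes. They are 10 of 24421 gene symbols counted, and all 10 were among the 11588 genes that passed the filter on low counts and were tested. Fibro-adipogenic progenitors (FAPs), the interstitial stromal cells of muscle, were sorted as PI- CD31- CD45- Sca1+ cells into DPPIV- and DPPIV+ fractions from each of 2 wild-type mice, which gave 4 bulk RNA sequencing libraries (n = 2 mice per fraction). Both mice had received a CSF1R inhibitor in chow (PLX73086, per the study's methods) for 3 weeks and then a regular diet for 3 days, so all 4 libraries share the drug and its withdrawal and none is from an untreated mouse. The study used adult mice of both sexes, and its sources used here do not give the age and sex of these 2 animals. The labels name the Tibialis Anterior as the tissue, while the extraction protocol describes muscle of both hindlimbs. The question for these genes is whether the fraction that is rich in transcripts of several BMP ligands also carries more transcripts of BMP receptors and response genes.

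Reads counted on genes ran from 18240110 to 20879405 per library. The FAP markers Pdgfra (mean of 1567 CPM in DPPIV- and 1200 CPM in DPPIV+ FAPs, where CPM is the read count scaled to a common library total) and Ly6a, which encodes Sca1 (981 and 1464 CPM), were abundant in both fractions. Dpp4 had 64.7 ± 35.4 CPM (SD, n = 2) in the DPPIV- fraction against 651 ± 108 CPM in the DPPIV+ fraction.

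BMPs signal through complexes of type I receptors (Bmpr1a, Bmpr1b, Acvr1 and, for BMP9 and BMP10, Acvrl1) and type II receptors (Bmpr2 and the activin receptors Acvr2a and Acvr2b). The type I receptor phosphorylates Smad1, Smad5 and Smad9, which enter the nucleus with Smad4 and induce Id1, Id2 and Id3, whose products bind basic helix-loop-helix factors and keep them off DNA, as well as Smad6 and Smad7, whose products shut the pathway down. Id genes and Smad7 also respond to other signals, TGF-beta among them, and Acvrl1 and Id1 are well known from endothelial cells.

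None of the 10 genes was higher in DPPIV+ FAPs past the threshold of 0.05 on the adjusted p, and 5 were lower (edgeR's quasi-likelihood test with mouse as a block, Benjamini-Hochberg adjustment over all genes tested). No gene of the 10 was higher at an unadjusted p under 0.05 either, nor past the threshold with DESeq2 or limma (0 in each). The 5 lower genes were Id1, Id2 and Id3 among the response genes and Acvr1 and Acvrl1 among the receptors. Over all genes tested, 15.9% were called higher and 17.2% lower. The same 5 genes had lower CPM in both DPPIV+ libraries than in both DPPIV- libraries, a pattern that 28.6% of the genes tested showed, and the fractions overlapped for the other 5. The fitted log2 fold change was below 0 for 9 of the 10 genes, with a median of -0.22, against -0.0020 over all genes tested (quartiles -0.18 and 0.14). The median was -0.32 for the response genes and -0.16 for the receptors. In bulk libraries, fewer cells that express a gene and less RNA per cell cannot be told apart.

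**Figure D1:**
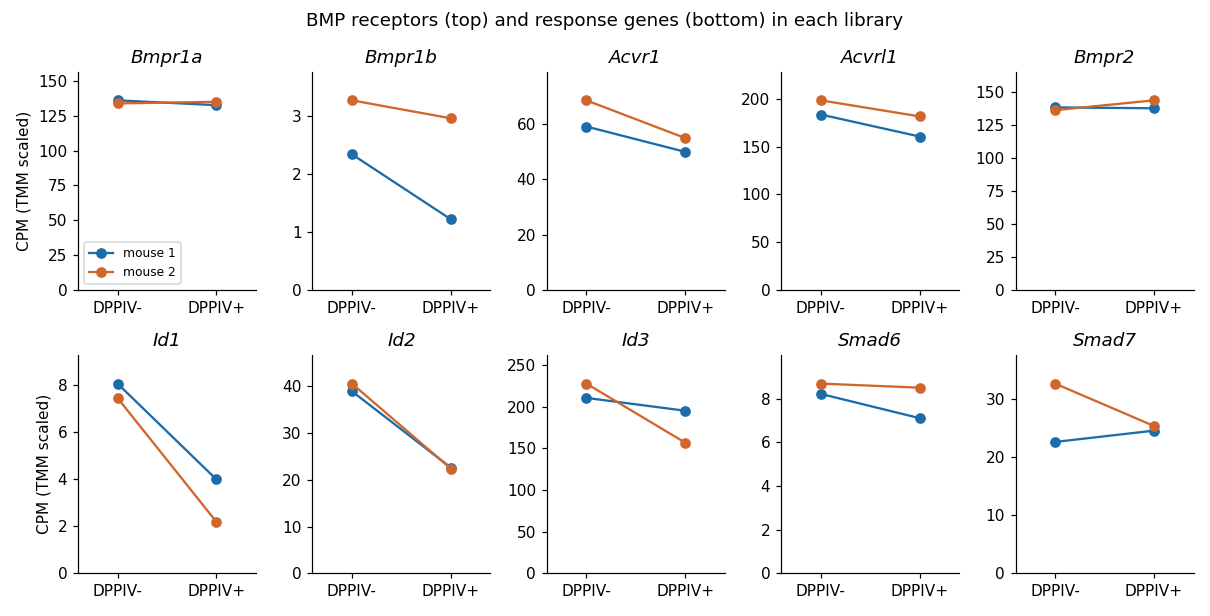
TMM-scaled CPM of each gene in the DPPIV- and DPPIV+ library of mouse 1 (blue) and mouse 2 (orange), with a line joining the libraries of 1 mouse and each vertical axis starting at 0. Id1 and Id2 drop steeply in both mice, Id3 drops mainly in mouse 2, and the lines of Bmpr1a and Bmpr2 are nearly flat.

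The response genes with the largest differences were Id1 and Id2. Id1 (ENSMUSG00000042745.9, chromosome 2 of GRCm38 from 152736251 to 152737410) had 169 and 146 reads in the DPPIV- libraries of mouse 1 and mouse 2, against 72 and 40 reads in the DPPIV+ libraries, or 8.08 and 7.46 CPM against 4.0 and 2.19 CPM. Both DPPIV- values lay above both DPPIV+ values, which reached 39.9% of the DPPIV- mean. Id1 was 2.54-fold lower in DPPIV+ FAPs (log2 fold change -1.34, standard error 0.21, adjusted p = 2.09e-09), with -1.01 in mouse 1 and -1.76 in mouse 2. Id2 (ENSMUSG00000020644.9, chromosome 12 from 25093799 to 25097140) had 38.9 and 40.5 CPM in the DPPIV- fraction against 22.6 and 22.4 CPM in the DPPIV+ fraction, and the values within a fraction were, relative to their mean, closer to each other than for any other response gene. Its log2 fold change was -0.82 (standard error 0.09, adjusted p = 4.07e-19), with -0.78 in mouse 1 and -0.86 in mouse 2. Id1 and Id2 passed the threshold under all 9 alternative settings with a test, including DESeq2 (adjusted p = 0.00247 and 1.15e-05) and a test against a change of 1.5-fold in edgeR (adjusted p = 0.000453 and 0.0102).

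Id3 (ENSMUSG00000007872.3, chromosome 4 from 136143497 to 136145755) was the most abundant response gene, with 210 and 228 CPM in the DPPIV- libraries of mouse 1 and mouse 2 against 195 and 157 CPM in the DPPIV+ libraries. The fractions did not overlap, but the drop in mouse 1 was small. The log2 fold change was -0.32 (standard error 0.07, adjusted p = 9.65e-06), with -0.11 in mouse 1 and -0.54 in mouse 2. Id3 did not pass the test against a change of 1.5-fold in edgeR. Without the mouse block in edgeR, the adjusted p of Id3 was 0.113. Summed over Id1, Id2 and Id3, the libraries of DPPIV- FAPs held 257 and 276 CPM and those of DPPIV+ FAPs 222 and 181 CPM, most of it from Id3. With 1 library per fraction and mouse, a difference between the mice in these effects was not tested.

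**Figure D2:**
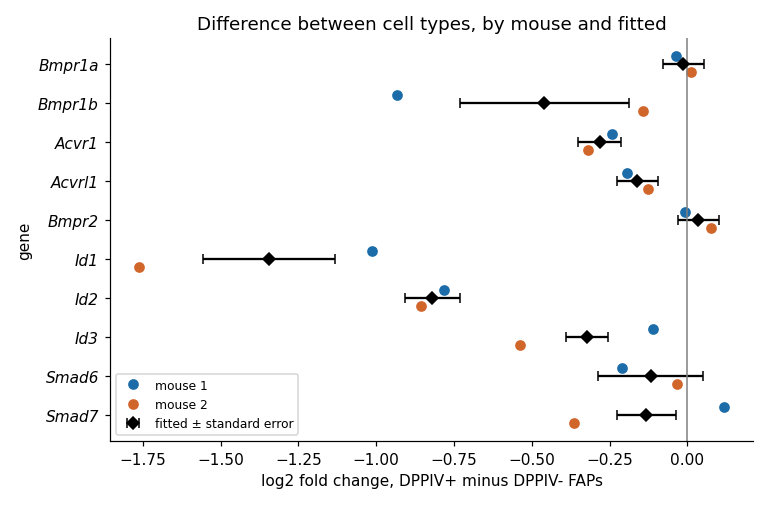
Log2 fold change of DPPIV+ over DPPIV- FAPs for each gene, as the fitted value with its standard error (black diamonds) and as the ratio within mouse 1 (blue) and mouse 2 (orange). The fitted values run from -1.34 for Id1 to 0.03 for Bmpr2, and the mice lie on opposite sides of 0 for Bmpr1a, Bmpr2 and Smad7.

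Promoter sequences are shown for 3 response genes, of which Id2 and Id3 were lower in DPPIV+ FAPs and Smad6 did not pass the threshold, because Smads bind such regions. They are RefSeq windows on GRCm38.p6 from 250 bases before to 50 bases after the start of transcription, in the direction of the gene, and the table held windows for 7 of the 10 genes (not for Id1, Acvrl1 and Smad7). The Id2 and Id3 windows lie within the gene coordinates given above, so their RefSeq starts differ from the gene ends of that annotation. Capitals mark exact matches, on either strand, to 3 motifs: GGCGCC, a GC-rich element of BMP-responsive enhancers, GTCTG with its reverse complement CAGAC, a Smad box, and GTCTAGAC, the palindromic Smad box, which does not contain GTCTG or CAGAC. Of 32851 windows of this length, 11.9% hold GGCGCC, 49.6% hold GTCTG or CAGAC and 0.213% hold GTCTAGAC.
Id2 (chr12:25096043-25096342, minus strand): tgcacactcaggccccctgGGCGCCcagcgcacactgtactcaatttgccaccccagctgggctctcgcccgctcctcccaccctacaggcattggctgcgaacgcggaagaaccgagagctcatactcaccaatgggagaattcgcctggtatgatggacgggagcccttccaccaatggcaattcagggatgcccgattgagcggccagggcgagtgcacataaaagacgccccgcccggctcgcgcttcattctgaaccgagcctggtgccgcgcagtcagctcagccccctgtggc
Id3 (chr4:136143572-136143871, plus strand): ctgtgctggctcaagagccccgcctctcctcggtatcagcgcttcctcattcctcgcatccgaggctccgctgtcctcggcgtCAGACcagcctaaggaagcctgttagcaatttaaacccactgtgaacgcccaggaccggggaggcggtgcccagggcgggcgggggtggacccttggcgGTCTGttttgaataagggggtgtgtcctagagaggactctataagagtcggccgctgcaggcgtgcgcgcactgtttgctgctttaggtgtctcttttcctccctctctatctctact
Smad6 (chr9:64022010-64022309, minus strand): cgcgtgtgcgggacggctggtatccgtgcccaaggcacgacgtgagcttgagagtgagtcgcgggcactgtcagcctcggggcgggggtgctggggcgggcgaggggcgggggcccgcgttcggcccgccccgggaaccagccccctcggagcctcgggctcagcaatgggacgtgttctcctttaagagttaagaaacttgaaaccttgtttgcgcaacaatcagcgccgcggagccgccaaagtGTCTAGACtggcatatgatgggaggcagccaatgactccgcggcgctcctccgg
The Id2 window holds 1 GGCGCC, which begins 231 bases before the start, and neither Smad box. The Id3 window holds 2 Smad boxes, CAGAC 167 bases and GTCTG 68 bases before the start, and no GGCGCC. In the Smad6 window the palindromic box begins 4 bases before the start. The windows of Bmpr1a and Bmpr2 each hold 1 GGCGCC, that of Acvr1 holds none of the 3 motifs, and of 3 windows for Bmpr1b, 2 hold 1 Smad box each. A match describes these letters only and is not a measured binding site.

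The inhibitory Smads did not pass the threshold. Smad6 (ENSMUSG00000036867.7, chromosome 9 from 63953076 to 64022059), whose product blocks BMP receptors and Smads, had 8.22 and 8.69 CPM in the DPPIV- fraction against 7.11 and 8.50 CPM in the DPPIV+ fraction, which overlap. Its log2 fold change was -0.12 (standard error 0.17, adjusted p = 0.665). Smad7 (ENSMUSG00000025880.11, chromosome 18 from 75367529 to 75395935), which acts on BMP and TGF-beta receptors alike, had 22.6 and 32.6 CPM in the DPPIV- fraction against 24.5 and 25.3 CPM in the DPPIV+ fraction. The DPPIV+ values lay between the DPPIV- values, and the log2 ratio was 0.12 in mouse 1 and -0.36 in mouse 2 (fitted -0.13, standard error 0.09, adjusted p = 0.316).

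Among the type I receptors, Bmpr1a (ENSMUSG00000021796.15, chromosome 14 from 34410734 to 34503341), which binds most BMPs, differed least. It had 136 and 134 CPM in the DPPIV- fraction against 133 and 135 CPM in the DPPIV+ fraction (log2 fold change -0.01, standard error 0.07, adjusted p = 0.921). Acvr1 (ENSMUSG00000026836.15, chromosome 2 from 58388644 to 58567157), also called ALK2 a receptor of BMP6 and BMP7, had 59.0 and 68.5 CPM in the DPPIV- fraction against 49.9 and 54.9 CPM in the DPPIV+ fraction. The fractions did not overlap and both mice showed the drop (log2 fold change -0.28, standard error 0.07, adjusted p = 0.000252). The call for Acvr1 was lost with DESeq2 (adjusted p = 0.169) and without the mouse block in edgeR (adjusted p = 0.0997).

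Acvrl1 (ENSMUSG00000000530.16, chromosome 15 from 101128522 to 101145336), also called ALK1, had 184 and 198 CPM in the DPPIV- fraction against 161 and 182 CPM in the DPPIV+ fraction. Its log2 fold change was -0.16 (standard error 0.07) and its adjusted p of 0.0493 (edgeR) lay just under the threshold, which it passed in 3 of 9 alternative settings. It had an adjusted p of 0.415 with DESeq2 and 0.324 without the mouse block in edgeR. Bmpr1b (ENSMUSG00000052430.15, chromosome 3 from 141837136 to 142169425), the type I receptor of cartilage, had few reads, with 49 and 64 in the DPPIV- libraries and 22 and 54 in the DPPIV+ libraries, and the fractions overlapped (log2 fold change -0.46, standard error 0.27, adjusted p = 0.203).

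Bmpr2 (ENSMUSG00000067336.6, chromosome 1 from 59763400 to 59879014), the type II receptor that binds BMPs in particular, had 138 and 136 CPM in the DPPIV- fraction against 138 and 144 CPM in the DPPIV+ fraction. Its fitted log2 fold change, 0.03 with a standard error of 0.07 (adjusted p = 0.750), was the only one of the 10 above 0, although upper-quartile scaling put it at -0.01. Acvr2a, a type II receptor that BMPs share with activins, fell from 105 ± 12.1 to 52.0 ± 3.46 CPM (log2 fold change -1.01, standard error 0.07, adjusted p = 2.64e-49), and it shares 446 exon bases with Orc4 on the opposite strand. Acvr2b was under the filter, with 10 and 19 reads in DPPIV- FAPs and 29 and 22 reads in DPPIV+ FAPs. Summed over the 5 receptors, the libraries held 519 and 540 CPM in the DPPIV- fraction against 482 and 518 CPM in the DPPIV+ fraction.

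**Figure D3:**
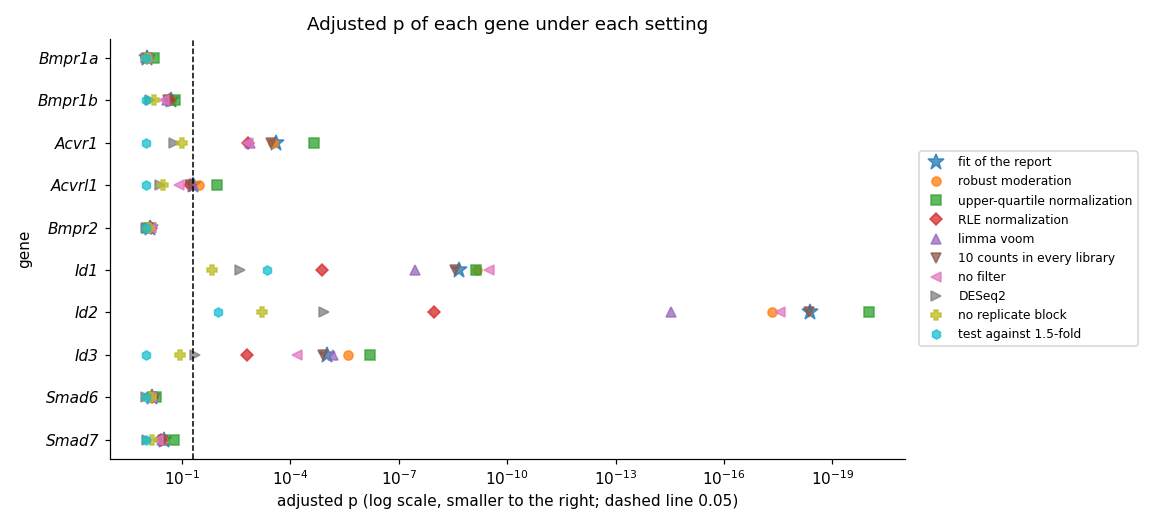
Adjusted p (log axis, smaller to the right) of each gene in the fit of the report (star) and under 9 alternative settings, with the threshold of 0.05 as a dashed line. Id1 and Id2 lie right of the line in every setting, Id3 in 7 of 9 alternatives, Acvr1 in 6 and Acvrl1 in 3, and the other 5 genes in none.

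Levels of different genes can be compared only per length, as RPKM (CPM per kilobase of exon). On this scale the order in DPPIV- FAPs was Id3 with 122 ± 6.77 (SD, n = 2), Acvrl1 with 44.8 ± 2.46, Bmpr1a with 21.2 ± 0.247, Id2 with 16.3 ± 0.476, Acvr1 with 13.2 ± 1.38 and Bmpr2 with 7.64 ± 0.0823. Id1 with 6.70 ± 0.373 and Smad7 with 6.10 ± 1.57 followed and overlapped each other, and Smad6 (2.64 ± 0.104) and Bmpr1b (0.471 ± 0.110) were lowest. In DPPIV+ FAPs, Id2 (9.23 ± 0.0640 RPKM) stood below Acvr1 (10.8 ± 0.730 RPKM), and Id1 (2.67 ± 1.1 RPKM) stood below Smad7 (5.51 ± 0.12 RPKM) and overlapped Smad6 (2.44 ± 0.308 RPKM). The other places in the order were as in DPPIV- FAPs. The RPKM of Bmpr2 rests on an exon length of 17983 bases, the longest of the 10 genes, and on all of its annotated exons being used.

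Between the animals, 2 of the 10 genes passed the threshold for the mouse term in the same model, against 8.98% of the genes tested. They were Bmpr1b (log2 difference 0.81 of mouse 2 over mouse 1, adjusted p = 0.0359) and Smad7 (0.30, adjusted p = 0.0225, both edgeR).

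The other genes of the pathway changed in both directions. Of the BMP ligands, 5 of 9 tested were higher and 3 lower in DPPIV+ FAPs, with the largest log2 fold changes for Bmp3 (5.08), Bmp8a (3.96), Bmp7 (3.43), Gdf10 (-2.95), Bmp5 (-1.19) and Bmp4 (-0.53). Gdf10, the closest relative of Bmp3, was the most abundant ligand transcript of DPPIV- FAPs, at 417 ± 27.7 CPM (SD, n = 2), and had 54.3 ± 9.87 CPM in DPPIV+ FAPs. Summed over the 15 ligands listed, the libraries held 731 and 661 CPM in the DPPIV- fraction against 410 and 378 CPM in the DPPIV+ fraction. Leaving out Gdf10, a step chosen after its values were seen, gave 294 and 263 CPM in the DPPIV- fraction against 363 and 317 CPM in the DPPIV+ fraction. The direction of the CPM sum thus turns on that gene. Without Bmp3 as well, which is known to oppose other BMPs, the sums were 292 and 262 CPM against 311 and 286 CPM. Unpaired, the fractions overlapped, while the log2 ratio of DPPIV+ over DPPIV- FAPs was 0.09 in mouse 1 and 0.13 in mouse 2. These sums, like the other CPM sums given here, are not scaled to gene length. A long transcript such as that of Bmp3 (7398 exon bases) therefore weighs more in them, and whether the fractions separate on a scale per length is not reported here.

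Downstream of the receptors, Smad1 rose from 22.2 ± 0.850 to 35.0 ± 2.84 CPM (log2 fold change 0.66, standard error 0.09, adjusted p = 6.47e-12). It was the only 1 of 3 tested signal-carrying Smads past the threshold, while all 3 were higher at an unadjusted p under 0.05 (adjusted p = 0.0594 for Smad5 and 0.123 for Smad4, edgeR). Of 8 intracellular inhibitors, 4 were higher (2 with DESeq2) and 0 lower, and 0 were lower at an unadjusted p under 0.05 or with DESeq2. Smurf2 rose from 75.2 ± 1.98 to 179 ± 14.5 CPM (log2 fold change 1.25, standard error 0.07, adjusted p = 3.41e-74) and Smurf1 from 68.6 ± 2.80 to 139 ± 5.66 CPM (log2 fold change 1.02, standard error 0.07, adjusted p = 7.60e-51). Both encode ubiquitin ligases that mark Smads and receptors for breakdown. Tob1, which binds BMP Smads, was also higher (log2 fold change 0.29, adjusted p = 0.000623 in edgeR and 0.192 in DESeq2). Ski, a repressor of Smad complexes and the most abundant gene of the list, had 486 ± 40.1 and 458 ± 56.6 CPM (adjusted p = 0.351).

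Of 6 co-receptors tested, Tgfbr3 was higher (log2 fold change 0.37, 642 CPM in DPPIV+ FAPs) and Eng, Rgma and Rgmb were lower (log2 fold changes -0.56, -0.26 and -0.24), although Rgmb had an adjusted p of 0.143 in DESeq2 and Rgma one of 0.0756 without the mouse block in edgeR. Eng encodes endoglin, the partner of Acvrl1, and had 278 ± 13.5 CPM in the DPPIV- fraction against 189 ± 0.115 CPM in the DPPIV+ fraction. Of 10 secreted antagonists tested, 4 were higher (3 with DESeq2), led by Fstl1 (log2 fold change 0.57), Twsg1 (0.55) and Chrd (0.34). Another 4 were lower (4 with DESeq2), led by Fstl3 (-1.24) and Bmper (-1.04). Fstl1 was the most abundant, with 3725 ± 124 CPM in the DPPIV- fraction against 5516 ± 101 CPM in the DPPIV+ fraction. Fstl3 shares 1157 exon bases with Prss57 on the opposite strand, and whether counting used strand is not given in the sources used here.

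Other genes that BMPs induce were lower where they passed the threshold, 4 of 8 tested (3 with DESeq2) against 0 higher (0 with DESeq2, and 1 at an unadjusted p under 0.05, Junb). Id4, the fourth Id gene, had 86 and 88 reads in DPPIV- FAPs and 29 and 17 reads in DPPIV+ FAPs (log2 fold change -1.76, standard error 0.28, adjusted p = 2.02e-09). Runx2, a bone transcription factor, fell from 18.9 ± 1.09 to 4.91 ± 1.28 CPM (log2 fold change -1.95) and Hey1, which Notch also induces, from 5.0 ± 1.44 to 2.02 ± 0.213 CPM (log2 fold change -1.30). Runx2 shares 519 exon bases with Runx2os1, and Id4 shares 171 with Gm49291 and 82 with A330033J07Rik, each on the opposite strand. Junb, the most abundant of the list, had 1456 ± 10.4 and 1644 ± 165 CPM (adjusted p = 0.0535). Msx1, Atoh8 and Klf10 did not pass the threshold either (log2 fold changes 0.03, -0.08 and -0.13, adjusted p = 0.772, 0.820 and 0.136, edgeR). Among the basic helix-loop-helix partners that Id proteins bind, Tcf4 (log2 fold change -0.41) and Tcf12 (-0.34) were lower and Tcf3 (-0.09, adjusted p = 0.381) did not pass.

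**Figure D4:**
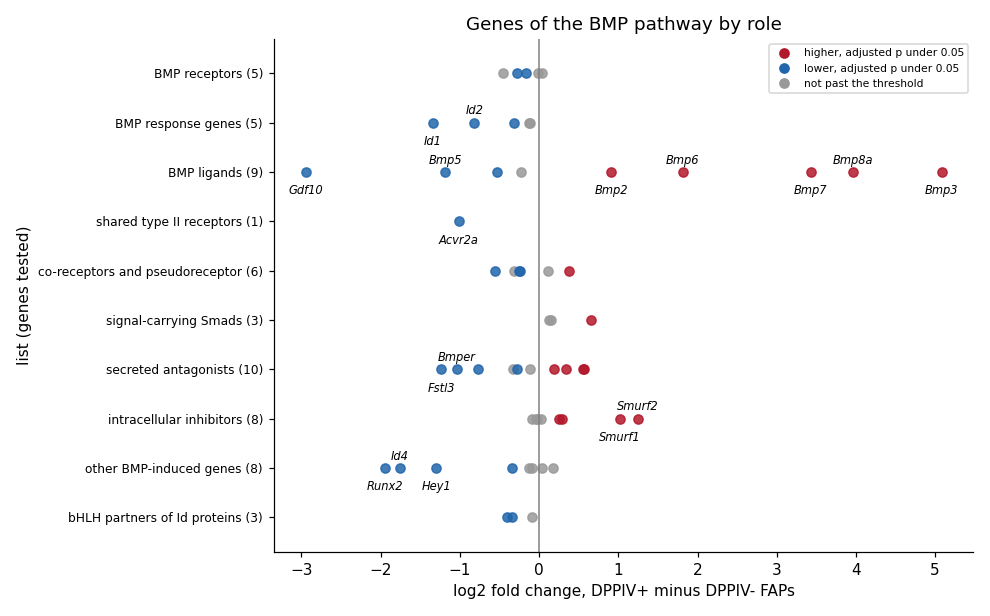
Log2 fold change of DPPIV+ over DPPIV- FAPs for each tested gene of the BMP pathway, in rows by role, with genes past the threshold in red (higher) or blue (lower) and names printed for changes over 0.8. The response genes and other BMP-induced genes past the threshold all lie left of 0, the intracellular inhibitors past it all lie right of 0, and the ligands spread from -2.95 to 5.08.

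Markers of other cells were measured beside these genes, and their part in the differences was not tested. Of 10 blood endothelial markers tested, 7 were lower, led by Esam, Ptprb and Flt1 (log2 fold changes -0.97, -0.95 and -0.74). With DESeq2 only 1 of the 10, Ptprb, was lower, and Esam and Flt1 had an adjusted p of 0.279 and 0.0880. The drop of Esam and Flt1 lay mainly in mouse 1 (log2 ratios -1.80 and -1.22, against -0.01 and -0.17 in mouse 2). Ptprb was lower in both mice (-0.85 in mouse 1 and -1.08 in mouse 2). Tek, which stood far above the rest of the list, was higher (1.42). The whole list summed to 306 and 216 CPM in the DPPIV- libraries of mouse 1 and mouse 2 and was higher in the DPPIV+ libraries, at 533 and 483 CPM. Without Tek, a step chosen after its values were seen, the direction turned and the sums were 119 and 67.0 CPM against 66.4 and 55.9 CPM, and no marker was at 0 in a library. The log2 ratio of the sum without Tek was -0.84 in mouse 1 and -0.26 in mouse 2. Mural markers were lower for 6 of 7 genes tested (4 with DESeq2), led by Abcc9 (-2.35), Notch3 (-1.60) and Kcnj8 (-1.32), with sums of 151 and 152 CPM in the DPPIV- fraction against 55.6 and 70.6 CPM in the DPPIV+ fraction. The most abundant, Cspg4, had 69.7 and 29.3 CPM. Smaller changes were seen for Rgs5 and Mcam (-0.42 and -0.82), which did not pass in DESeq2 (adjusted p = 0.439 and 0.209). Myh11 (-0.28) did not pass in edgeR (adjusted p = 0.221). Of 10 immediate early and heat shock genes, which respond to cell isolation, 7 were lower, led by Hspa1b, Jun and Ier2 (-0.47, -0.45 and -0.45), and Atf3 (0.30) and Dusp1 (0.23) were higher. Without the mouse block in edgeR, Hspa1b, Atf3 and Dusp1 had an adjusted p of 0.512, 0.222 and 0.117. The 10 genes summed to 12761 and 12602 CPM in the DPPIV- fraction against 11440 and 10129 CPM in the DPPIV+ fraction, which is -0.16 (mouse 1) and -0.32 (mouse 2) as a log2 ratio.

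Leukocyte markers were lower for 3 of 5 tested (Adgre1, C1qa and Csf1r), with sums of 63.1 to 99.2 CPM in DPPIV- FAPs and 59.4 to 67.6 CPM in DPPIV+ FAPs, and Timd4 was at 0 in 3 libraries. In DESeq2 none of these 3 passed, with adjusted p from 0.182 to 0.511. The log2 ratio of the leukocyte sum was -0.55 in mouse 1 and -0.09 in mouse 2. Tenocyte markers were higher for 4 of 5 genes, led by Fmod, Scx and Mkx (log2 fold changes 2.26, 2.14 and 1.44). Thbs4, the most abundant of them, was lower, with 1849 ± 350 and 1685 ± 752 CPM (log2 fold change -0.20, adjusted p = 0.0260 in edgeR and 0.851 in DESeq2). The 5 genes, with Thbs4 as the largest part in each fraction's mean, summed to 1798 and 2391 CPM against 1902 and 3767 CPM. Lymphatic and myofibre markers had 0 calls among 2 and 4 genes tested (0 with DESeq2, and 1 and 0 at an unadjusted p under 0.05), glial markers 1 lower (S100b) of 3, and none of 4 satellite cell markers passed the filter.

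**Figure D5:**
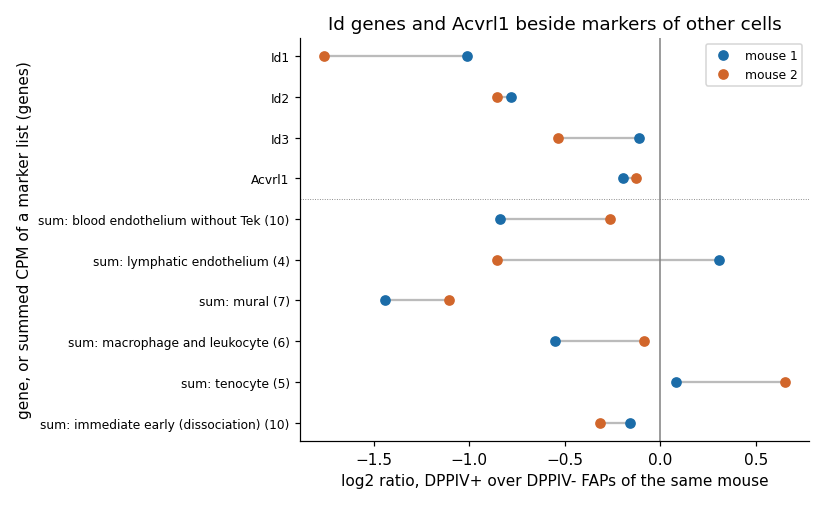
Log2 ratio of DPPIV+ over DPPIV- FAPs within mouse 1 (blue) and mouse 2 (orange), for 4 of the genes (top) and for the summed CPM of marker lists of other cells (bottom). The ratios in mouse 1 and mouse 2 are -0.84 and -0.26 for blood endothelial markers without Tek, -0.16 and -0.32 for immediate early genes and -0.78 and -0.86 for Id2.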

How the data were processed

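The data are read counts per gene symbol for 4 libraries, which the authors deposited without normalization or filter. Per the study's methods, paired-end reads were demultiplexed with bcl2fastq 2.20, aligned to mm10 with STAR and counted with RnaReadCounter. The annotation release and strand setting are not given in the sources used here. The labels name a NEBNext Ultra II stranded kit and the methods a TruSeq stranded kit.

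Genes that reached 2 CPM in no fewer than 2 libraries, which is how the filter in the methods was read, were kept and scaled by TMM. The fractions were compared in edgeR 4.0.16 (R 4.3.3) with a quasi-likelihood fit and F test, two-sided, on mouse and cell type, since the methods place the animal in the model. The study itself used a Wald test in DESeq2, which is an alternative here. P-values were adjusted by Benjamini-Hochberg over 11588 genes, with a threshold of 0.05. The titles give each animal number to 1 DPPIV- and 1 DPPIV+ library, and the differences between the mice in both fractions had a correlation of 0.415 across genes. The model leaves 1 residual degree of freedom, and the prior degrees of freedom were infinite, so each gene takes the spread of genes of like abundance. The standard error is the size of the log2 fold change over the root of F. CPM values use TMM-scaled library sizes, and ratios per mouse a small prior count. RPKM divides CPM by the length of merged exons in GENCODE M21 (GRCm38). Alternatives were DESeq2 1.42.0, limma 3.58.1 (voom), robust moderation, no mouse block, RLE and upper-quartile scaling, no filter, 10 counts in every library, a test against 1.5-fold, and each mouse left out. The tests were run on simulated counts with the same spread for every gene and no difference between the mice. That check therefore does not cover the gene-to-gene spread or the mouse differences of these data.

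In a search with BLAST 2.17.0 for matches of 50 bases or more with 97% identity or more, transcripts of the 10 genes matched 3 other genes, of which only Grik5 (60 bases of Bmpr2) is in the counts. On the opposite strand, 290 exon bases of Bmpr1a overlap Gm17110 and 127 of Acvrl1 overlap Gm16031.

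The genes, lists and tests were chosen with earlier results of these data known. Text names all 10 genes and, from each other list, at most 3 higher and 3 lower genes past the threshold by size, plus its most abundant gene; some genes the rule would name are not reported here. Genes outside this rule are named for a check of the sort, to complete a family, or as the ones a small count stands for.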

Additional observations from a re-analysis of the deposited data

How the results depend on the processing

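Direction and call of Id1 and Id2 were the same in all 9 alternatives with a test, with log2 fold changes from -1.76 to -1.01 and from -0.86 to -0.78 when each mouse left out is included. The number of the 10 genes called lower was 5 in the reported fit, 3 with DESeq2 (Id1, Id2 and Id3), 2 without the replicate block (Id1 and Id2), 2 against a change of 1.5-fold (Id1 and Id2) and 4 or 5 in the others, and the cause of these losses was not tested. Acvrl1 also lost its call in edgeR with RLE scaling (adjusted p = 0.0586), no filter (0.117) and 10 counts in every library (0.0581). Its adjusted p ran from 0.0104 to 1, that of Acvr1 from 2.27e-05 to 1 and that of Id3 from 6.40e-07 to 1 over the alternatives. No gene of the 10 was called higher in any of them. Genes of the other pathway lists, with the TGF-beta induced genes described below included, numbered 16 higher and 21 lower, and 7 and 10 against 1.5-fold. Over all genes, 1837 were higher and 1989 lower, against 923 and 995 with DESeq2, 1001 and 1119 without the replicate block, and 436 and 656 against 1.5-fold. Leaving out a mouse leaves 1 library per fraction and no test. Bmpr1b, Id1, Smad6, Id4 and Hey1 rest on under 200 reads per library, which limits their precision. The same holds for Bmp8a among the ligands and for the markers Kcnj8, Esam, Scx, Mkx and S100b.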

Other observations

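Of 6 genes tested that TGF-beta induces, 4 were lower and 1 higher in DPPIV+ FAPs. Ltbp2, a matrix protein of microfibrils, was lower (log2 fold change -2.54, standard error 0.09), with 64.5 ± 37.3 CPM (SD, n = 2) in the DPPIV- fraction against 11.3 ± 7.83 CPM in the DPPIV+ fraction, and it shares 764 exon bases with D030025P21Rik on the opposite strand. Tgfbi, an extracellular matrix protein, had 568 ± 9.68 CPM in the DPPIV- fraction against 349 ± 32.5 CPM in the DPPIV+ fraction (log2 fold change -0.71). Pmepa1, an inhibitor of TGF-beta Smads, was higher (log2 fold change 0.22, adjusted p = 0.0050 in edgeR and 0.139 in DESeq2).

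Over the 4 libraries, the tested gene of at least 10 CPM whose centred log2 CPM (pseudocount 0.01) lay nearest to that of Id2 was Bhlhe41, at a Euclidean distance of 0.0322, with 32.0 CPM in the DPPIV- fraction against 18.1 CPM in the DPPIV+ fraction. The nearest to Id1 was Crispld1 (distance 0.245), to Id3 Plekha4 (0.0454) and to Bmpr1b Comp (0.211). These distances, over 8637 candidates and 4 libraries, are a description only.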
